A study of Mus musculus with 8 samples.

Results

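The non-beta hormone transcripts of the mouse islet were examined through 6 genes: Gcg (proglucagon), Sst (somatostatin), Ppy (pancreatic polypeptide), Pyy (peptide YY), Ghrl (ghrelin) and Ttr (transthyretin). They were chosen by name, as the main secreted products of islet endocrine cells other than the insulin-producing beta cells, and all 6 were found among the 54532 gene identifiers of each library. Poly(A) RNA had been sequenced from islets of mice aged 25 to 30 weeks. The islets were freed with collagenase, picked by hand, kept in culture overnight and then exposed for 3 h to DMXAA at 50 µg/mL or to its solvent DMSO. DMXAA is a synthetic agonist of mouse STING, an adaptor protein through which DNA in the cytosol turns on interferon genes.

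The 4 groups were STING knockout (Sting-/-) islets with DMXAA, STING knockout islets with DMSO, wild-type islets with DMXAA and wild-type islets with DMSO, with 2 libraries in each. The labels describe neither the knockout allele nor the strain, and they do not say which mice the libraries of a pair were made from. The p-values below therefore reflect only how much these libraries scatter, and that scatter may be technical. Genotype cannot be told apart from any difference in cohort or islet isolation between the mice of each genotype. Total counts lay between 15624020 and 19601850 per library. The targeted gene, Sting1 (named Tmem173 in the annotation), had 35 and 27 counts with DMXAA and 48 and 19 with DMSO in the libraries labelled knockout, against 23 and 39 with DMXAA and 39 and 41 with DMSO in wild type. Its count was therefore not lower under the knockout label (log2 fold change 0.02, SE 0.34, edgeR adjusted p = 0.986), and these libraries are called knockout-labelled throughout. The response to the agonist did differ by label. The summed level of 10 interferon-stimulated genes in CPM, a count corrected for the size of its library, was 112 and 106 in knockout-labelled DMXAA, 99.5 and 67 in knockout-labelled DMSO, 3761 and 3875 in wild-type DMXAA, and 117 and 123 in wild-type DMSO libraries. All 10 rose with DMXAA in wild type, among them Oasl1 (log2 fold change 5.28), Ifit1 (5.15) and Ifit3 (5.46). Under DMXAA all 10 were lower in knockout-labelled than in wild-type islets. Within knockout-labelled islets edgeR called 0 of 10 for DMXAA, with 2 at an unadjusted p under 0.05, and DESeq2 and limma-voom called 0 and 0.

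The islet holds several endocrine cell types that regulate one another by secreted peptides. Alpha cells process proglucagon to glucagon, which raises blood glucose by acting on the liver. Delta cells release somatostatin, which restrains both insulin and glucagon secretion at short range. The PP cells release pancreatic polypeptide. Peptide YY, of the same peptide family, is made by several islet cell types as well as by gut endocrine cells, and rare epsilon cells make ghrelin, better known as the hunger hormone of the stomach. Transthyretin is a carrier of thyroid hormone and of retinol-binding protein. It is best known from liver and choroid plexus, and among islet cells it is abundant in alpha cells.

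In mm10 coordinates, with the exon structure of GENCODE M21, all 6 genes were protein-coding. Gcg spanned chr2:62474530-62483650, Sst chr16:23889573-23890958, Ppy chr11:102099930-102101319, Pyy chr11:102106676-102107832 and Ghrl chr6:113716119-113719880, all on the minus strand, and Ttr is placed with its results below. Ppy and Pyy are neighbours, with 5356 bp between the ends of their gene models. The 250 bases before the RefSeq transcription start (GRCm38.p6) were available for 5 of the 6 genes. They are shown for Sst, the transcript called between genotypes below. Those of Gcg, Ppy and Pyy, the other abundant peptide hormone transcripts, are shown so that the proximal promoters can be compared. Of 2 overlapping windows for Pyy the more upstream one is shown. All read 5′ to 3′ on the minus strand. Capitals mark matches on either strand to 3 of the 4 motifs searched, the cAMP response element TGACGTCA, the TATA box TATAAA and the interferon response core (GAAA, any 2 bases, GAAA). The fourth, the homeodomain core TAATTA, had no match in these windows.
Sst, chr16:23890845-23891094: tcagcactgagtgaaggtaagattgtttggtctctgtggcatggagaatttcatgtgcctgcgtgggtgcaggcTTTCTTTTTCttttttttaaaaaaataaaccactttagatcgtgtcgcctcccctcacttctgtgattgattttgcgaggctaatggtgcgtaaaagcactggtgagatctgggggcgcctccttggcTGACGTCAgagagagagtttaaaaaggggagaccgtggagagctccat
Gcg, chr2:62483654-62483903: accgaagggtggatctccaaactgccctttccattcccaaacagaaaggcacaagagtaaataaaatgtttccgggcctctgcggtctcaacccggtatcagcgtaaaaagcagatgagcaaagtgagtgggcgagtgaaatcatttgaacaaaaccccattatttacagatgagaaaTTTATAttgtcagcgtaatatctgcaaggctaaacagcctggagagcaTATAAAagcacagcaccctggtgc
Ppy, chr11:102101320-102101569: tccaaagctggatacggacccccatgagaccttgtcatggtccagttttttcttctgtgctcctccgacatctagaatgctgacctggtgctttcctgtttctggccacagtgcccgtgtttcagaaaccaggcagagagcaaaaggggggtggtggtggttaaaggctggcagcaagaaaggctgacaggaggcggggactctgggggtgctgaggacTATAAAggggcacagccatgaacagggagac
Pyy, chr11:102107833-102108082: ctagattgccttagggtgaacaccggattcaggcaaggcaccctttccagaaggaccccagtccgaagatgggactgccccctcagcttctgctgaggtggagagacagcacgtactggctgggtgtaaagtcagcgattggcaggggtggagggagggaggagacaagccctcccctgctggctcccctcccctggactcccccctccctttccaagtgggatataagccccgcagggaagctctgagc

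The Sst window held the palindrome TGACGTCA from position -48 to -41 relative to the start, a sequence found in 1.55% of 32851 mouse promoter windows of the same length. The gene is a textbook target of cAMP signalling through this element. The same window matched the interferon response core on the reverse strand from -176 to -167, within a run of pyrimidines (2.98% of all windows). Both TATAAA in forward orientation at -24 to -19 and its reverse complement at -72 to -67 were found in Gcg, and a forward TATAAA stood at -31 to -26 in Ppy (12.4% of all windows on either strand). The Pyy window held none of the 4 motifs, and TAATTA occurs in 4.84% of all windows. Each match is a description of letters and says nothing about whether a factor was bound. The GENCODE model of Sst begins further upstream than the RefSeq one, at position 23890958, inside the window shown.

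Gcg was by far the most abundant of the 6 and ranked 4 among all genes by CPM in each of the 8 libraries, with Ins2 at rank 1 and Ins1 at rank 2. Expressed as TPM, which corrects for transcript length as well as library size and so allows genes to be compared with each other, the median over the 8 libraries was 29347 TPM for Gcg, 5533 TPM for Ppy, 4679 TPM for Sst, 3539 TPM for Pyy, 1685 TPM for Ttr and 1.61 TPM for Ghrl. The ranges of Gcg (24745 to 32694 TPM) and Ghrl (0.680 to 2.68 TPM) were apart from all others. Those of Ppy (4219 to 11444 TPM), Sst (2976 to 6291 TPM) and Pyy (1639 to 5637 TPM) overlapped. The range of Pyy also overlapped that of Ttr (1212 to 1954 TPM). Inside every library, however, Ppy was above Pyy and Pyy was above Ttr. Sst was above Pyy except in wild-type DMSO replicate 2 (3602 against 3603 TPM). Only Sst and Ppy clearly changed places, with Sst above Ppy in both knockout-labelled DMSO libraries and below it in the others. The mean of Sst was above that of Ppy in 1 of the 4 groups. Sst stood at 5838 ± 542 TPM and Ppy at 8691 ± 3893 TPM in knockout-labelled DMXAA islets, and Sst at 4075 ± 292 TPM and Ppy at 5533 ± 208 TPM in wild-type DMXAA islets (SD, n = 2 each). Sst stood at 5684 ± 859 TPM and Ppy at 4504 ± 332 TPM in knockout-labelled DMSO islets, whereas Sst stood at 3289 ± 442 TPM and Ppy at 5381 ± 1643 TPM in wild-type DMSO islets (SD, n = 2 each).

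Together the 6 transcripts took 1.9% to 2.88% of all counts in a library, and 16.9% to 27.8% with Ins1 and Ins2 added. Gcg supplied 74.4% to 85.6% of the counts of the 6. Ins2 lay between 120459 and 213638 CPM in knockout-labelled and between 104193 and 151615 CPM in wild-type libraries. Over all 8 libraries the coefficient of variation of the CPM was lowest for Gcg (16.7%) and Ttr (23.6%) and intermediate for Sst (37.1%). It was highest for Pyy (43.4%), Ghrl (44.0%) and Ppy (53.2%). The value of Ppy reflects 1 knockout-labelled DMXAA library at 3065 CPM. In wild-type libraries it was 14.5% for Ppy, 18.4% for Sst and 30.3% for Pyy, and in knockout-labelled libraries 62.3%, 20.5% and 40.5%.

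**Figure D1:**
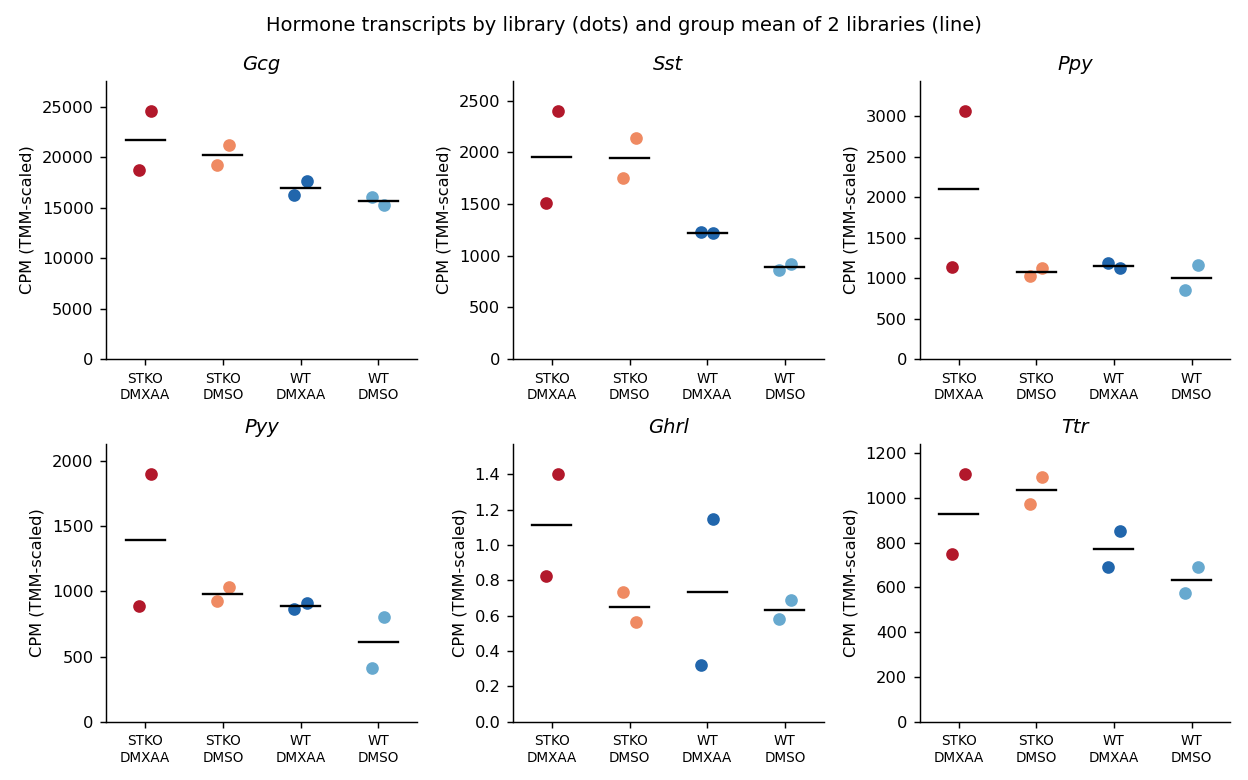
Level of each hormone transcript in each library in CPM on TMM-scaled library sizes (linear axes from 0), with dots for the 2 libraries of a group and a line for their mean. The 4 knockout-labelled libraries of Sst lie at 1508 to 2402 CPM, all above the wild-type libraries at 861 to 1228 CPM, and 1 knockout-labelled DMXAA library stands apart for Ppy at 3065 CPM.

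The first comparison was between genotypes, and Sst was the 1 transcript that edgeR called. Sst had 1508 and 2402 CPM in knockout-labelled DMXAA libraries and 1749 and 2142 CPM in knockout-labelled DMSO libraries, against 1228 and 1221 CPM in wild-type DMXAA and 861 and 920 CPM in wild-type DMSO libraries. All 4 knockout-labelled libraries lay above all 4 wild-type libraries, and within wild type the DMSO pair was the lowest. Averaged over both treatments the log2 fold change was 0.90 (SE 0.15, edgeR quasi-likelihood adjusted p = 0.00719), a level 1.87 times that of wild type with a 95% interval of 1.5 to 2.33. Of the 6 transcripts 1 was called higher, beside 0.657% of the 17055 genes tested that were called higher in this comparison (1.65% in either direction). The median log2 fold change of the 6 was 0.48, beside 0.02 over all genes. At an unadjusted p under 0.05 edgeR gave 4 of the 6 (Sst, Ttr, Gcg and Pyy), and all 6 estimates were above 0. The insulin genes had log2 fold changes of 0.36 (Ins1) and 0.38 (Ins2) and were not called (edgeR adjusted p = 0.394 and 0.388). In whole islets, more delta cells and more somatostatin mRNA per delta cell cannot be told apart.

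Within each treatment the Sst difference had the same direction but did not pass the adjusted threshold. Under DMSO the log2 fold change was 1.13 (SE 0.21, edgeR adjusted p = 0.0531) and under DMXAA it was 0.67 (SE 0.21, adjusted p = 0.145). Neither edgeR nor limma-voom called any of the 6 transcripts in these comparisons, where edgeR called 0.223% and 2.39% of all genes. At an unadjusted p under 0.05 in edgeR they held 2 (Sst and Ttr) and 1 (Sst) of the 6, and DESeq2 called Sst and Ttr under DMSO (adjusted p = 1.44e-05 and 0.0411) and Sst under DMXAA (adjusted p = 0.0260). On the TPM scale the genotypes did not overlap in Sst either, at 5077 to 6291 TPM in knockout-labelled and 2976 to 4282 TPM in wild-type libraries. The call over both treatments was lost without knockout-labelled DMSO replicate 2 (0.80, edgeR adjusted p = 0.0738).

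Transcripts of acinar enzymes, made by the exocrine pancreas around the islets, also varied between libraries. The summed CPM of 18 acinar genes was 388 to 2579 in knockout-labelled and 1483 to 7331 in wild-type libraries, which overlap. Under DMXAA alone the genotypes were apart, at 443 and 388 in knockout-labelled and 1675 and 3160 in wild-type libraries. Under DMSO they overlapped, at 1730 and 2579 against 7331 and 1483. Between genotypes over both treatments the acinar genes had a median log2 fold change of -1.82. edgeR and limma-voom called 0 of 18, DESeq2 called 8, and 10 had an unadjusted p under 0.05 in edgeR. Under DMXAA edgeR and limma-voom also called 0 of 18, DESeq2 called 11, and 11 had an unadjusted p under 0.05 in edgeR. With the logarithm of this sum as a covariate the log2 fold change of Sst was 0.86, its SE grew to 0.24 and its call was lost (edgeR adjusted p = 0.201). The part of exocrine tissue in the Sst difference was not tested further.

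Ratios within a library do not depend on scaling between libraries. For every 100 Gcg counts there were 8.05 and 9.76 Sst counts in knockout-labelled DMXAA and 9.07 and 10.1 in knockout-labelled DMSO libraries, against 7.55 and 6.90 in wild-type DMXAA and 5.36 and 6.05 in wild-type DMSO libraries. The genotypes did not overlap in this ratio, with a mean of 9.24 in knockout-labelled and 6.46 in wild-type libraries. They were likewise apart for Sst per 100 Ins2 counts (1.03 to 1.25 in knockout-labelled, 0.568 to 1.01 in wild-type libraries) and for Sst per 100 Ttr counts (180 to 217 in knockout-labelled, 133 to 178 in wild-type libraries). Sst per 100 Ppy counts overlapped, at 78.4 to 191 in knockout-labelled and 79.4 to 109 in wild-type libraries. The lowest of these knockout-labelled values came from the library with high Ppy described below. The amount of glucagon relative to insulin did not separate the genotypes: Gcg per 100 Ins2 counts was 11.4 to 15.5 in knockout-labelled and 10.6 to 14.7 in wild-type libraries.

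**Figure D2:**
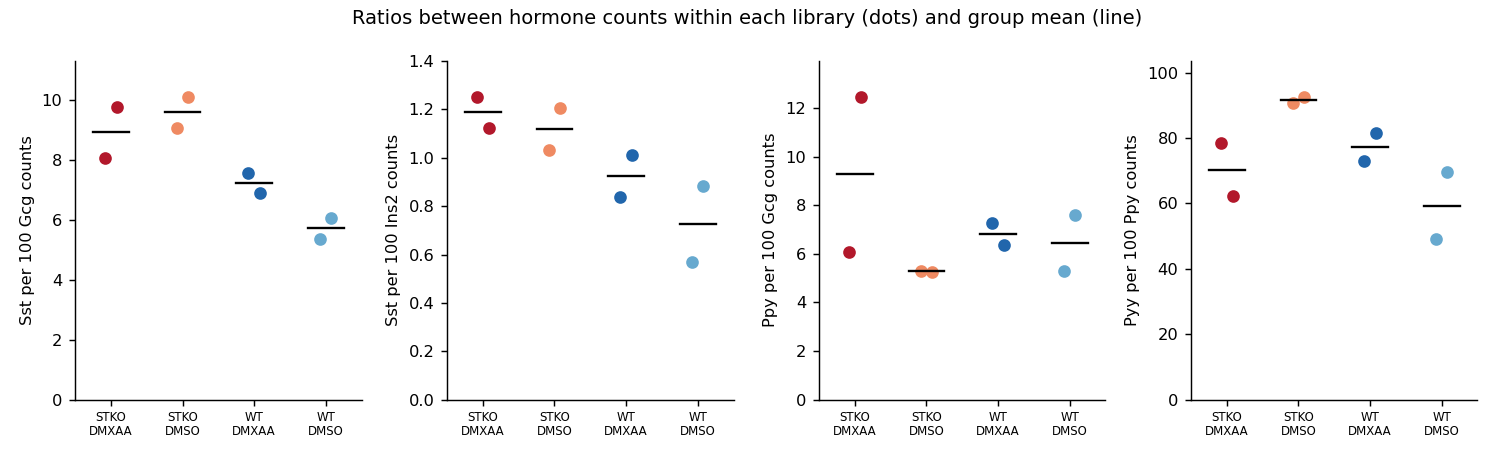
Ratios between hormone counts inside each library (linear axes from 0), with dots for libraries and a line for the mean of the 2 libraries of a group. Sst per 100 Gcg counts is 8.05 to 10.1 in knockout-labelled and 5.36 to 7.55 in wild-type libraries, whereas Ppy per 100 Gcg counts is between 5.27 and 7.62 in 7 libraries and 12.5 in the remaining one.

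Gcg had 18728 and 24607 CPM in knockout-labelled DMXAA and 19284 and 21229 CPM in knockout-labelled DMSO libraries, against 16277 and 17693 CPM in wild-type DMXAA and 16055 and 15226 CPM in wild-type DMSO libraries. On this scale the genotypes did not overlap, which Gcg shared with Sst: 2 of the 6 transcripts had every knockout-labelled library above every wild-type library, beside 3.99% of all genes. The log2 fold change of Gcg over both treatments was 0.36 (SE 0.15) and did not pass the threshold (edgeR adjusted p = 0.24). On the TPM scale the genotypes overlapped, at 27019 to 32694 TPM in knockout-labelled and 24745 to 29942 TPM in wild-type libraries.

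Ttr spans chr18:20665280-20674321 on the plus strand. It was measured at 751 and 1109 CPM in knockout-labelled DMXAA and 974 and 1094 CPM in knockout-labelled DMSO libraries, against 691 and 851 CPM in wild-type DMXAA and 577 and 692 CPM in wild-type DMSO libraries. The DMSO groups were apart and the DMXAA groups overlapped. Its log2 fold change between genotypes was 0.49 over both treatments (SE 0.14, edgeR adjusted p = 0.121) and 0.70 under DMSO (SE 0.20, adjusted p = 0.211). Relative to glucagon mRNA its amount overlapped between genotypes, at 4.01 to 5.16 counts per 100 Gcg counts in knockout-labelled and 3.59 to 4.81 in wild-type libraries.

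Ppy, the hormone of PP cells, had 1138 and 3065 CPM in knockout-labelled DMXAA and 1020 and 1119 CPM in knockout-labelled DMSO libraries, against 1186 and 1123 CPM in wild-type DMXAA and 847 and 1160 CPM in wild-type DMSO libraries. Knockout-labelled DMXAA replicate 2 was far above the remaining 7, which spanned 847 to 1186 CPM. The same library had the highest level of Gcg, Sst, Pyy, Ghrl, Ttr, Ins1 and Ins2 in CPM. It also had the lowest TMM scaling factor, 0.8724, against 0.9555 to 1.103 in the others, and a low factor raises every CPM value of a library. On the TPM scale this library was still highest for Ppy (11444), Pyy (5637), Ins1 (127411) and Ins2 (304011). Its Gcg level of 30750.3 TPM was below the 32694 TPM of knockout-labelled DMXAA replicate 1, and it was not highest for Sst, Ghrl or Ttr either. The Ppy level was high within the library too, at 12.5 Ppy counts per 100 Gcg counts, against 5.27 to 7.62 in the others. The log2 fold change of Ppy between genotypes over both treatments was 0.48 (SE 0.29, edgeR adjusted p = 0.435), and it was 0.03 without that library (SE 0.12, adjusted p = 0.965). Without the other library of the same group, knockout-labelled DMXAA replicate 1, it was 0.75 and passed the threshold (adjusted p = 0.00623), with the 1 high library then standing alone for its group.

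Pyy, encoded next to Ppy, followed a similar course. It had 891 and 1905 CPM in knockout-labelled DMXAA and 924 and 1035 CPM in knockout-labelled DMSO libraries, against 863 and 914 CPM in wild-type DMXAA and 415 and 806 CPM in wild-type DMSO libraries. The genotypes overlapped over both treatments, as did the DMXAA groups, whereas both wild-type DMSO libraries were below all 6 others. A knockout-labelled DMXAA library stood highest. The log2 fold change between genotypes was 0.67 over both treatments (SE 0.28, edgeR adjusted p = 0.291) and 0.33 without knockout-labelled DMXAA replicate 2. Pyy varied against Ppy within libraries as well. There were 78.3 and 62.2 Pyy counts per 100 Ppy counts in knockout-labelled DMXAA and 90.7 and 92.5 in knockout-labelled DMSO libraries, against 72.8 and 81.4 in wild-type DMXAA and 49.0 and 69.5 in wild-type DMSO libraries.

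Ghrl was close to the limit of detection. It had 17 and 24 counts in knockout-labelled DMXAA and 11 and 10 in knockout-labelled DMSO libraries, against 6 and 22 in wild-type DMXAA and 11 and 14 in wild-type DMSO libraries. These correspond to 0.323 to 1.40 CPM, and the genotypes overlapped. Both knockout-labelled DMXAA libraries were above the knockout-labelled DMSO pair, whereas the wild-type DMXAA libraries lay on either side of the wild-type DMSO pair. The 95% interval of its fold between genotypes over both treatments ran from 0.621 to 2.40, and so held both a fall and a rise. Exons of 2 genes on the opposite strand overlap the gene. Gm26982 (40 to 78 counts per library) does so only at its edge, since it ends at position 113716121 and Ghrl begins at 113716119. Gm44033 (113718584-113719278) lies inside Ghrl and had 0 to 3 counts per library. Whether reads were counted by strand is not given in the sources used here. Reads from the shared stretches may therefore belong to either gene.

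The second comparison was between DMXAA and DMSO. None of the 6 hormone transcripts passed the threshold in wild-type islets (1.48% of all genes called), in knockout-labelled islets (0.375%), or averaged over genotypes (0.745%), and none had all 4 DMXAA libraries above all 4 DMSO libraries (1.61% of all genes did). At an unadjusted p under 0.05, edgeR gave 1 of 6 in wild type (Sst), 1 of 6 in knockout-labelled islets (Ppy) and 0 of 6 averaged over genotypes. DESeq2 and limma-voom also called 0 of 6 in each of these 3 comparisons.

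In wild type, where the interferon-stimulated genes rose, the log2 fold change with DMXAA was 0.12 for Gcg (95% interval -0.33 to 0.57), 0.46 for Sst (0.01 to 0.91) and 0.20 for Ppy (-0.75 to 1.15). It was 0.54 for Pyy (-0.39 to 1.47), 0.22 for Ghrl (-1.17 to 1.61) and 0.28 for Ttr (-0.15 to 0.71). All 6 estimates were above 0, with a median of 0.25, beside -0.000659 over all genes. The 2 wild-type DMXAA libraries of Sst (1228 and 1221 CPM) were both above the 2 wild-type DMSO libraries (861 and 920 CPM), but 2 libraries against 2 cannot go below p = 0.33 in an exact permutation test, and the edgeR adjusted p was 0.416. The intervals of Gcg, Sst and Ttr were the narrower ones, and those of Ppy, Pyy and Ghrl spanned both falls and rises of considerable size.

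In knockout-labelled islets the log2 fold change with DMXAA was 0.10 for Gcg, 0.01 for Sst, 0.97 for Ppy, 0.51 for Pyy, 0.76 for Ghrl and -0.15 for Ttr. The value for Ppy (SE 0.41, edgeR adjusted p = 0.674) was 0.11 without knockout-labelled DMXAA replicate 2 and 1.52 without replicate 1, where it was called (adjusted p = 0.0219). That of Pyy was -0.12 without replicate 2. The size of the Ppy value and the sign of the Pyy value thus turned on 1 library. Acinar genes had a median log2 fold change of -3.01 with DMXAA in these islets. Of the 18, edgeR and limma-voom called 0, DESeq2 called 6, and 13 had an unadjusted p under 0.05 in edgeR. The part of exocrine tissue in the hormone values was not tested.

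The difference between the 2 DMXAA effects was not called for any of the 6 (1.2% of all genes were called, 8 of the 10 interferon-stimulated genes among them), and 0 of 6 had an unadjusted p under 0.05 in edgeR. DESeq2 and limma-voom called 0 of 6 as well. The interaction estimate, knockout-labelled minus wild type, was -0.45 for Sst (SE 0.29, edgeR adjusted p = 0.71), -0.43 for Ttr (SE 0.28, adjusted p = 0.71) and 0.77 for Ppy (SE 0.57, adjusted p = 0.763), and it was -0.02 for Gcg and -0.03 for Pyy.

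**Figure D3:**
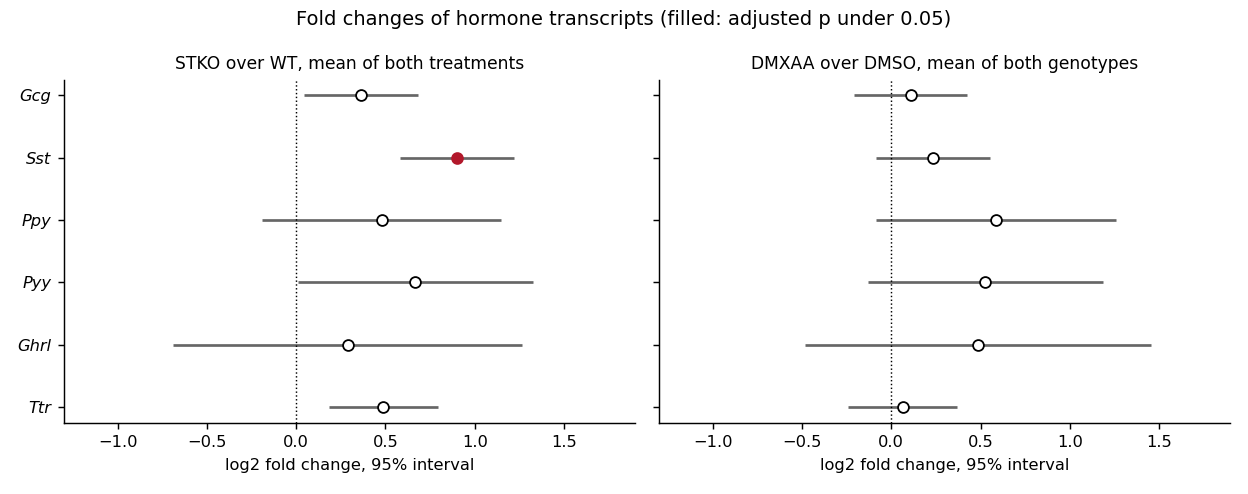
Log2 fold changes of the 6 transcripts with 95% intervals, for knockout-labelled (STKO) over wild-type islets averaged over treatments (left) and for DMXAA over DMSO averaged over genotypes (right). Filled points have an edgeR adjusted p under 0.05: this holds for Sst at 0.90 in the genotype panel and for no transcript in the treatment panel, where Ppy has the largest estimate at 0.59.

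Markers of the hormone-producing cells were set beside the hormones themselves. Of 8 delta cell genes other than Sst, 2 were called higher in knockout-labelled islets over both treatments and none was called lower. Of all genes 0.657% were called higher. The list median was 0.22, against 0.02 for all genes. Hhex, the transcription factor that maintains delta cell identity, had 14.1 and 15 CPM in knockout-labelled DMXAA and 14.8 and 19.5 CPM in knockout-labelled DMSO libraries, against 6.68 and 9.0 CPM in wild-type DMXAA and 10.6 and 10.2 CPM in wild-type DMSO libraries. Its genotypes did not overlap (log2 fold change 0.81, SE 0.15, edgeR adjusted p = 0.0174). The call was lost with the acinar covariate (0.98, adjusted p = 0.137) and without wild-type DMXAA replicate 1 (adjusted p = 0.103), knockout-labelled DMSO replicate 2 (0.188) or knockout-labelled DMXAA replicate 2 (0.0589).

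Rbp4, the retinol-binding protein gene that marks delta cells in mouse islets, had 110 and 203 CPM in knockout-labelled DMXAA and 124 and 151 CPM in knockout-labelled DMSO libraries, against 88.4 and 98.8 CPM in wild-type DMXAA and 74.1 and 85.1 CPM in wild-type DMSO libraries. These libraries were also apart by genotype (0.77, SE 0.17, edgeR adjusted p = 0.0461). The call stood close to the threshold. It was lost when any library but knockout-labelled DMXAA replicate 1 was left out (adjusted p 0.0700 to 0.232 in those 7 fits), and the estimate without knockout-labelled DMXAA replicate 2 was 0.50. It was also lost with the acinar covariate (0.69, adjusted p = 0.424), without a low count filter (0.0782) and in limma-voom (0.0578). The delta cell gene Casr, the calcium-sensing receptor, went the other way and was not called (log2 fold change -0.33, SE 0.12, edgeR unadjusted p = 0.0198, adjusted p = 0.214). Its value was -0.58 under DMSO (edgeR unadjusted p = 0.00602, adjusted p = 0.242) and -0.08 under DMXAA. Over both treatments 3 of the 8 delta cell genes had an unadjusted p under 0.05 in edgeR: Hhex, Rbp4 and Casr. DESeq2 called 2 of the 8 and limma-voom called 1. Ghsr, the ghrelin receptor that delta cells carry, stood at 2.67 to 5.61 CPM in knockout-labelled and 2.19 to 3.74 CPM in wild-type libraries (0.38, edgeR adjusted p = 0.479).

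Alpha cell genes showed no called difference between genotypes. Over both treatments edgeR called 0 of 8 (median log2 fold change 0.12), 0 had an unadjusted p under 0.05, and DESeq2 and limma-voom called 0 as well. Slc7a2, an arginine transporter, and Gc, the vitamin D-binding protein gene, had log2 fold changes of -0.08 and -0.13. The summed level of the 8 alpha cell genes was 507 to 589 CPM in knockout-labelled and 530 to 604 CPM in wild-type libraries, whereas that of the 8 delta cell genes was 219 to 313 CPM in knockout-labelled and 188 to 200 CPM in wild-type libraries. Without Rbp4, left out after its values were seen, the other 7 delta cell genes summed to 95.5 to 121 CPM in knockout-labelled and 99.9 to 115 CPM in wild-type libraries, which overlap. For DMXAA edgeR, DESeq2 and limma-voom each called 0 of the 8 alpha and 0 of the 8 delta cell genes in either genotype, and at an unadjusted p under 0.05 edgeR gave 1 delta cell gene in knockout-labelled islets and 0 otherwise. Of 12 beta cell genes these tools called 0 between genotypes over both treatments, with 1 at an unadjusted p under 0.05 in edgeR.

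**Figure D4:**
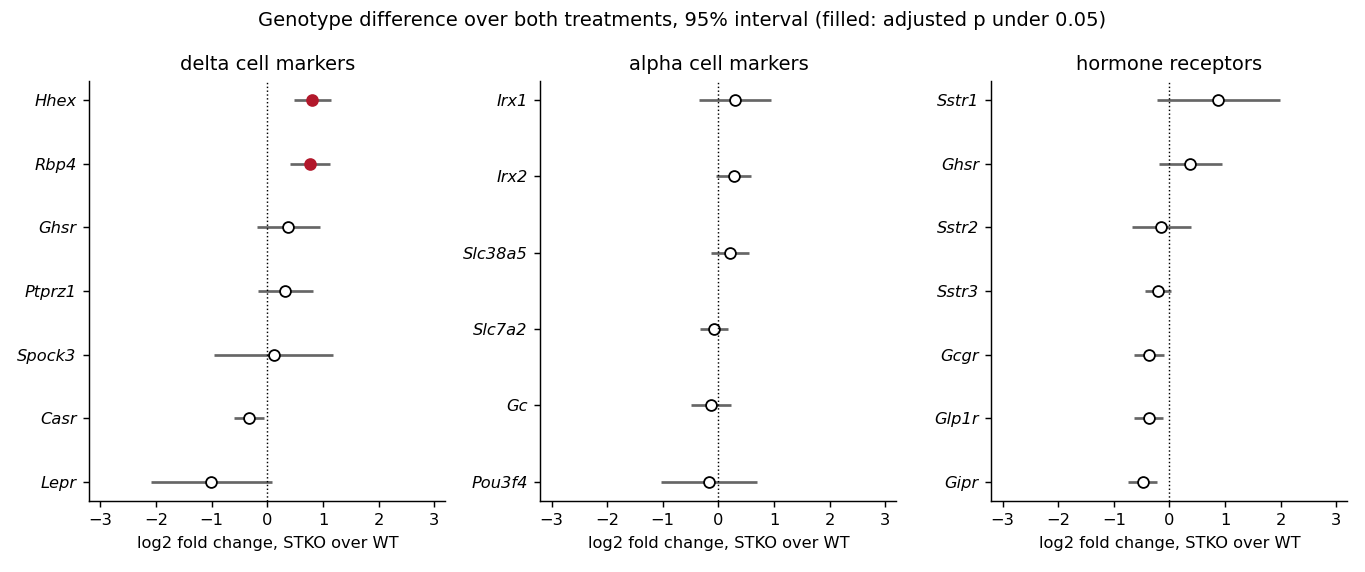
Log2 fold changes between knockout-labelled (STKO) and wild-type islets over both treatments with 95% intervals, for the delta and alpha cell genes reported here and the tested hormone receptors. Hhex at 0.81 and Rbp4 at 0.77 are the filled points (edgeR adjusted p under 0.05), and no alpha cell gene or receptor shown is filled.

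The receptors of these hormones and of the related incretins showed 1 called gene. Of 14 receptor genes 7 passed the filter on low counts. Over both treatments edgeR and limma-voom called 0 of these 7 between genotypes (median log2 fold change -0.21), DESeq2 called 1, and 3 had an unadjusted p under 0.05 in edgeR. Under DMXAA 1 of 7 was lower in knockout-labelled islets, beside 1.37% of all genes called lower. This was Gipr, the receptor of the incretin GIP, with 108 and 96.8 CPM in knockout-labelled DMXAA libraries, against 201 and 169 CPM in wild-type DMXAA libraries. These 4 libraries were apart by genotype (log2 fold change -0.85, SE 0.17, edgeR adjusted p = 0.0153), while under DMSO Gipr was 118 and 128 CPM in knockout-labelled and 112 and 153 CPM in wild-type libraries. The call was lost without wild-type DMXAA replicate 1 (-0.73, edgeR adjusted p = 0.234) or knockout-labelled DMXAA replicate 2 (-0.79, adjusted p = 0.113). The test of the difference between the DMXAA effects did not pass for Gipr (-0.75, SE 0.24, adjusted p = 0.276).

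Sstr3, a somatostatin receptor of beta cells, stood at 92.7 to 134 CPM in knockout-labelled and 108 to 158 CPM in wild-type libraries, and Glp1r, the GLP-1 receptor, at 61.0 to 105 CPM in knockout-labelled and 90.4 to 132 CPM in wild-type libraries. Both overlapped between genotypes, and neither was called (log2 fold changes -0.21 and -0.37, edgeR adjusted p = 0.351 and 0.163). The receptors Npy1r, Npy2r, Npy4r and Npy5r, through which pancreatic polypeptide and peptide YY act, had 0 to 3 counts in every library and were not tested. These 4 genes were named after their values had been seen.

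The enzymes that mature the prohormones were abundant and uncalled between genotypes. Over both treatments edgeR and limma-voom called 0 of 8 tested processing genes (median log2 fold change 0.15), DESeq2 called 1, and 3 had an unadjusted p under 0.05 in edgeR. Cpe, the carboxypeptidase that trims cleaved prohormones, had a log2 fold change of 0.14. Pcsk2, the convertase that makes glucagon from proglucagon, had 0.16. Pcsk1n, which encodes the convertase inhibitor proSAAS, had 0.51 (SE 0.18, edgeR adjusted p = 0.189). Mboat4, the enzyme that acylates ghrelin, was detected at 0 to 3 counts per library, did not pass the filter, and was named after its values had been seen. Of 5 genes of endocrine secretory granules, edgeR, DESeq2 and limma-voom called 0 between genotypes over both treatments, and 0 had an unadjusted p under 0.05.

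Markers of other cell types moved between the groups too. Over both treatments 1 of 12 endothelial genes (Egfl7, log2 fold change 1.0) and 1 of 9 tested lymphocyte genes (Cd79a, 2.31) were higher in knockout-labelled islets, and 1 of 10 fibroblast and pericyte genes (Rgs5, -0.66) was lower. Under DMXAA 7 of 12 endothelial genes were higher in knockout-labelled islets, Egfl7, Kdr and Eng among them, as were Pdgfrb and the macrophage gene Cd68. With DMXAA in wild type 3 of 12 endothelial genes fell (Egfl7, Kdr and Eng), and in knockout-labelled islets Kdr and Flt1 rose. The interaction was called for 5 of 12, with Kdr, Eng and Flt1 among them. Of the B cell genes, Cd79a stood higher under DMSO in the knockout-labelled pair than in the wild-type pair, and Ms4a1 and Cd79b fell with DMXAA in knockout-labelled islets. Ms4a1 also fell with DMXAA averaged over genotypes. Of all genes, edgeR called 1.65% in either direction between genotypes over both treatments, 0.223% under DMSO and 2.39% under DMXAA. With DMXAA it called 1.48% in wild type, 0.375% in knockout-labelled islets, 0.745% averaged over genotypes and 1.2% for the interaction.

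Summed levels of these lists overlapped between genotypes. Endothelial genes summed to 770.0 to 1404 CPM in knockout-labelled and 709 to 1137 CPM in wild-type libraries, and lymphocyte genes to 11.4 to 91.4 CPM in knockout-labelled and 8.86 to 36.1 CPM in wild-type libraries. Fibroblast genes summed to 105 to 218 CPM in knockout-labelled and 105 to 324 CPM in wild-type libraries, and macrophage genes to 91.0 to 178 CPM in knockout-labelled and 72.0 to 114 CPM in wild-type libraries. Within a treatment several were apart. Under DMXAA the endothelial sums were 1404 and 1286 CPM in knockout-labelled and 709 and 738 CPM in wild-type libraries. Under DMSO they were 847 and 770 against 893 and 1137 CPM, apart in the other direction, and fibroblast sums followed the same pattern. Lymphocyte sums were apart under DMSO alone (91.4 and 71.9 against 36.1 and 8.86 CPM). Macrophage sums were apart under DMXAA alone (91.0 and 178 against 72.4 and 72.0 CPM). None of these lists was at 0 in any library. Duct genes summed to 796 to 1713 CPM in knockout-labelled and 778 to 1139 CPM in wild-type libraries. Of 6 tested duct genes edgeR and limma-voom called 0 between genotypes over both treatments, 3 had an unadjusted p under 0.05 in edgeR, and DESeq2 called 3. The 3 with an unadjusted p under 0.05 were Krt19 (log2 fold change -1.14), Sox9 (-0.98) and Muc1 (-0.84). Hepatocyte genes, which share Ttr as an abundant product of their cell type, summed to 15.4 to 21.6 CPM in knockout-labelled and 7.10 to 20.3 CPM in wild-type libraries, far below the level of Ttr itself. Their sums were apart under DMSO alone (19.3 and 15.4 against 7.10 and 10.9 CPM). The part of these cell types in the Sst difference was not tested.

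Finally, each hormone transcript was compared with 9213 genes of at least 10 CPM by the SD of its log2 ratio to them over the 8 libraries, a small SD meaning that the pair kept a nearly constant ratio. The libraries share their scaling, so these values are a description. Sst kept the most constant ratio to Rbp4 (SD 0.15), then to Dpp6 (0.16) and the pseudogene Dynlt1-ps1 (0.20), against a median of 0.55 over all genes. Rbp4 was nearer to Sst than was Ttr (0.25), Gcg (0.33), Ins1 (0.35) or Hhex (0.40).

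Ppy was nearest to Apoe (SD 0.19), Rab3b (0.23) and Folr1 (0.25), with Pyy at rank 15 (0.30), and Pyy was nearest to C1qtnf4 (0.17), Ptms (0.18) and Rab3b (0.19). The medians over all genes were 0.56 and 0.61. Rab3b, a small GTPase of secretory vesicles, was thus among the 3 nearest genes of both Ppy and Pyy. Among the neighbours of Pyy, Ppy stood at rank 128 (0.30), behind the delta cell gene Rbp4 at rank 90 (0.28). Among those of Ppy, Rbp4 stood at rank 106 (0.36). For Ppy and Pyy the SD is weighted by the 1 library in which both were high. Gcg was nearest to Dyrk3, Lsm12 and Cdc42se1, each with an SD of 0.06 against a median of 0.28, and Ttr to Tbcc, Tmem11 and Ndufa7, each with 0.07 against 0.37. For Gcg, whose own SD on the log2 scale was 0.23, many genes come close to a constant ratio, and Ttr was at rank 1217 of 9213.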

How the data were processed

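Per the labels, poly(A)-selected RNA from 8 islet libraries was read as paired ends of 150 bp on an Illumina HiSeq instrument. The authors deposited 1 raw count per gene and library as whole numbers. The mouse build mm10 and the tools HISAT2 and HTSeq stand in the submitters' processing notes. Their versions, the annotation release and whether reads were counted by strand were not given in the sources used here. No file held a line for unassigned reads. Symbols, coordinates and exon lengths came from GENCODE M21, which held 54495 of 54532 identifiers, and the other 37 were kept without a symbol. Promoter sequences came from RefSeq (GRCm38.p6).

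Counts were analysed with edgeR 4.0.16 in R 4.3.3. Default filterByExpr by group left 17055 genes, all 6 hormone genes among them, and libraries were scaled by TMM, which sets every CPM. A negative binomial model with 4 group means was fitted to all 8 libraries (4 residual degrees of freedom, biological coefficient of variation 17.1%) and tested with the quasi-likelihood F-test (robust, legacy=FALSE). Benjamini-Hochberg adjusted p under 0.05 over all genes counted as called. SE was taken as the size of the log2 fold change over the square root of F. TPM was computed from counts and exon lengths, and ratios from raw counts. Ratios were described without a test. Within a single treatment or genotype, with 2 libraries against 2, an exact two-sided permutation test cannot go below 0.33. Alternatives used DESeq2 1.42.0 and limma 3.58.1, other scalings and filters, a replicate block, an acinar covariate and each library left out.

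The 6 genes and the gene lists were chosen with earlier results of these data known. Beside the 6 and the insulin genes, the rule named up to 3 called genes per list and comparison with the smallest p, the 3 genes of highest mean CPM in the alpha, delta, receptor and processing lists, and the 3 genes nearest to each hormone transcript of at least 1 CPM. Some genes that this rule named are not reported here. In simulated data for the genotype comparison over both treatments (16661 genes), 79 of 100 genes changed 2-fold and 98 of 100 changed 4-fold were recovered, with 14 false calls among 191. The 2 libraries of each group differed by more than sampling noise (chi-square per degree of freedom 6.83 to 53.8), so none was a copy. Replicate numbers 1 and 2 recur in each group, but the labels tie them to no mouse or day.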

Additional observations from a re-analysis of the deposited data

How the results depend on the processing

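Over all alternatives run, 598 of the recomputed fold changes kept their direction and side of the threshold. Another 30 changed sign, 21 passed the threshold where the reported value had not, and 18 lost it. This tally covers Gcg, Sst, Ppy, Pyy and Ttr in every comparison. It also holds Hhex and Rbp4 between genotypes over both treatments, and Gipr between genotypes under DMXAA. Ghrl and the other named genes are not in it. The Sst difference between genotypes over both treatments was positive in all 17 alternatives (0.70 to 1.05) and called in 15. The cause of each change below was not tested.

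Between genotypes over both treatments, where 1 of the 6 transcripts was called, 3 were called without a low count filter (Gcg, Sst and Ttr), 2 with DESeq2 (Sst and Ttr) and 0 with the acinar covariate; leaving out 1 library gave 0 to 4, with 4 (Gcg, Sst, Ppy and Ttr) without knockout-labelled DMXAA replicate 1 and 0 without knockout-labelled DMSO replicate 2. Under DMSO, where 0 were called, Sst was the 1 called with RLE scaling, with TMM computed without the hormones, without a filter, with the 4 libraries alone and with the replicate block (adjusted p = 0.0263), and 2 were called with DESeq2 (Sst and Ttr); leave-outs gave 0 to 1. Under DMXAA 1 was called with DESeq2 (Sst), and leave-outs gave 0 to 2. Leave-outs gave 0 to 1 for DMXAA in knockout-labelled islets, for the interaction and for DMXAA averaged over genotypes, in each case Ppy without knockout-labelled DMXAA replicate 1. A left-out library leaves 1 in its group, which is then assumed to vary like the others.

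Signs changed mostly for values near 0. For DMXAA in knockout-labelled islets Sst (main value 0.01) became -0.00397 with the stricter filter, -0.0202 with limma-voom, -0.00169 with 4 libraries, -0.00978 with the replicate block and -0.062 with the acinar covariate. That covariate also turned Pyy in the same comparison (-0.32), Gcg in the interaction (0.0615), Ppy between genotypes under DMSO (-0.0139), Pyy between genotypes under DMXAA (-0.22) and Ttr with DMXAA averaged over genotypes (-0.00839). Leave-outs spanned 0 for DMXAA in knockout-labelled islets for Gcg (-0.0936 to 0.29), Sst (-0.35 to 0.31), Pyy (-0.12 to 0.96) and Ttr (-0.44 to 0.11); for the interaction for Gcg (-0.22 to 0.16), Ppy (-0.10 to 1.32) and Pyy (-0.67 to 0.42); between genotypes for Ppy under DMSO (-0.13 to 0.34) and, under DMXAA, for Ppy (-0.0268 to 1.41), Pyy (-0.00232 to 1.10) and Ttr (-0.0454 to 0.53); and for Ttr with DMXAA averaged over genotypes (-0.0752 to 0.19).

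Counts of called genes over the whole table moved more. They were 253 (160 to 994 over the alternatives) for DMXAA in wild type, 64 (0 to 177) in knockout-labelled islets, 204 (87 to 313) for the interaction, 127 (41 to 412) for DMXAA averaged, 38 (3 to 240) between genotypes under DMSO, 407 (168 to 674) under DMXAA and 282 (62 to 1427) over both treatments, the last being 1427 without knockout-labelled DMXAA replicate 1. Same-numbered libraries did not deviate together (correlations -0.10 to 0.07 between groups), so the numbers were not treated as pairs, and the replicate block changed the call of a hormone transcript in no other comparison. The 6 to 24 counts of Ghrl per library limit any statement on it.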
